A study of Homo sapiens with 6 samples.

Results

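The 7 human genes for inhibitors of cyclin-dependent kinases (CDKs) were examined in RNA sequencing of MOLP-8 cells with and without CRISPR targeting of LIN28B. They are the 3 CIP/KIP genes CDKN1A, CDKN1B and CDKN1C and the 4 INK4 genes CDKN2A, CDKN2B, CDKN2C and CDKN2D. They were chosen by gene symbol, and all 7 were found, in 1 row each, among 57861 genes with a usable value in every library. LIN28B KO cells carried a guide against LIN28B and control cells a scrambled guide, both delivered with the lentiCRISPRv2 vector, and both were selected with puromycin at 1 µg/mL. The sample titles call the same cells KD, and their LIN28B transcript stood at 30.7% of the control mean. MOLP-8 is an established human multiple myeloma cell line, the product of a plasma cell cancer. Each group had 3 libraries, 6 in all. The labels name no clones and do not tell whether those of a group are separate cultures. Each p-value below therefore sets a difference against library-to-library spread alone, part or all of which may be technical.

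CDK inhibitors are small proteins that hold back the cell cycle before DNA replication. INK4 proteins bind CDK4 and CDK6 alone and keep D-type cyclins from joining them. CIP/KIP proteins bind cyclin-CDK complexes, block those that contain CDK2 and can help D-type cyclins assemble with CDK4 and CDK6. LIN28B blocks the maturation of the let-7 microRNAs, which repress mRNAs through short matching stretches in the 3′ untranslated region (UTR). The design asks which transcripts differ once LIN28B is targeted.

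Values are FPKM, in which fragments are divided by transcript length and by the size of the library, so levels of different genes can be set side by side. Depth was estimated from the deposited bounds, taken as counting error alone. It came to between 4811217 and 5600566 fragment equivalents in LIN28B KO libraries and between 6314594 and 8374056 in controls. LIN28B itself stood at 8.41, 8.17 and 5.84 FPKM in LIN28B KO libraries 1 to 3 and at 23.3, 24.3 and 25.5 FPKM in control libraries 1 to 3 (log2 fold change -1.66, SE 0.17, limma adjusted p = 0.0207), a call that did not survive leaving out LIN28B KO library 1 or 2 or any of the 3 controls. LIN28B KO library 3 stood apart: its median log2 ratio to the control mean over the 15803 genes tested was -0.35, against -0.01 in each of LIN28B KO libraries 1 and 2. It also listed 17676 genes at 1 FPKM or more, against 15932 and 15922 in LIN28B KO libraries 1 and 2 and 15356 to 15430 in controls. In this library the nuclear transcript MALAT1 reached 892 FPKM, while LIN28B KO libraries 1 and 2 had 314 and 331 FPKM of it and controls 259 to 286 FPKM. The actin mRNA ACTB reached 1289.8 FPKM, while LIN28B KO libraries 1 and 2 had 1888 and 1929.8 FPKM and controls 2199 to 2416 FPKM. Their part in the results was not tested, and results are given with and without this library. All 9 plasma cell markers examined reached 1 FPKM in every library, among them SDC1, CD38 and IRF4, with summed levels of 2169 to 3212 FPKM in LIN28B KO libraries and 3199 to 3308 FPKM in controls. The summed level of 7 T and NK cell markers was 88.1 to 96.8 FPKM in LIN28B KO libraries and 59.3 to 69.5 FPKM in controls. Nearly all of it was NCAM1, an adhesion molecule also found on myeloma cells. CD3D and NKG7 were listed at 0 in every library. The 6 myeloid markers summed to at most 1.76 FPKM in any library, and the 6 fibroblast markers to 3.62 to 14.2 FPKM in LIN28B KO libraries and 3.10 to 5.89 FPKM in controls. The 5 epithelial markers, mostly KRT8, summed to 77.7 to 103 FPKM in LIN28B KO libraries and 121 to 133 FPKM in controls, with EPCAM at 0.0378 FPKM or less. The part of these markers in the results below was not tested.

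Of the 7 genes, 4 were measured well enough to be tested and 3 were near or at 0. CDKN1A was the most abundant, followed by CDKN2C, CDKN1B and CDKN2D, in that order in all 6 libraries. In LIN28B KO cells these 4 averaged 226 ± 55.2, 71.2 ± 19.0, 32.8 ± 6.92 and 4.48 ± 1.07 FPKM (SD, n = 3 each). In controls they averaged 202 ± 5.30, 103 ± 4.6, 46.4 ± 1.36 and 6.24 ± 0.649 FPKM (SD, n = 3 each). Neighbours in this order lay further apart than their spread in both groups. With all 6 libraries no CDK inhibitor gene passed the test across all genes (limma, Benjamini-Hochberg adjusted p under 0.05), which called 0.0633% of genes higher and 0.0316% lower. In bulk libraries a lower level in each cell and fewer cells that express a gene, such as fewer cells in a phase of the cycle, cannot be told apart. Within the family the balance differed without overlap between the groups. CDKN1A took a larger share of the family's transcripts in every LIN28B KO library, and CDKN1B, CDKN2C and CDKN2D a smaller one. Shares of 1 sum are tied, so a larger share of CDKN1A leaves less for the others. Such differences were also common outside the family. The ratio of CDKN1A to another gene was above all controls in every LIN28B KO library for 38.3% of 15377 tested genes. For CDKN1B, CDKN2C and CDKN2D the ratio was below all controls for 57.1%, 56.5% and 42.8%.

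**Figure D1:**
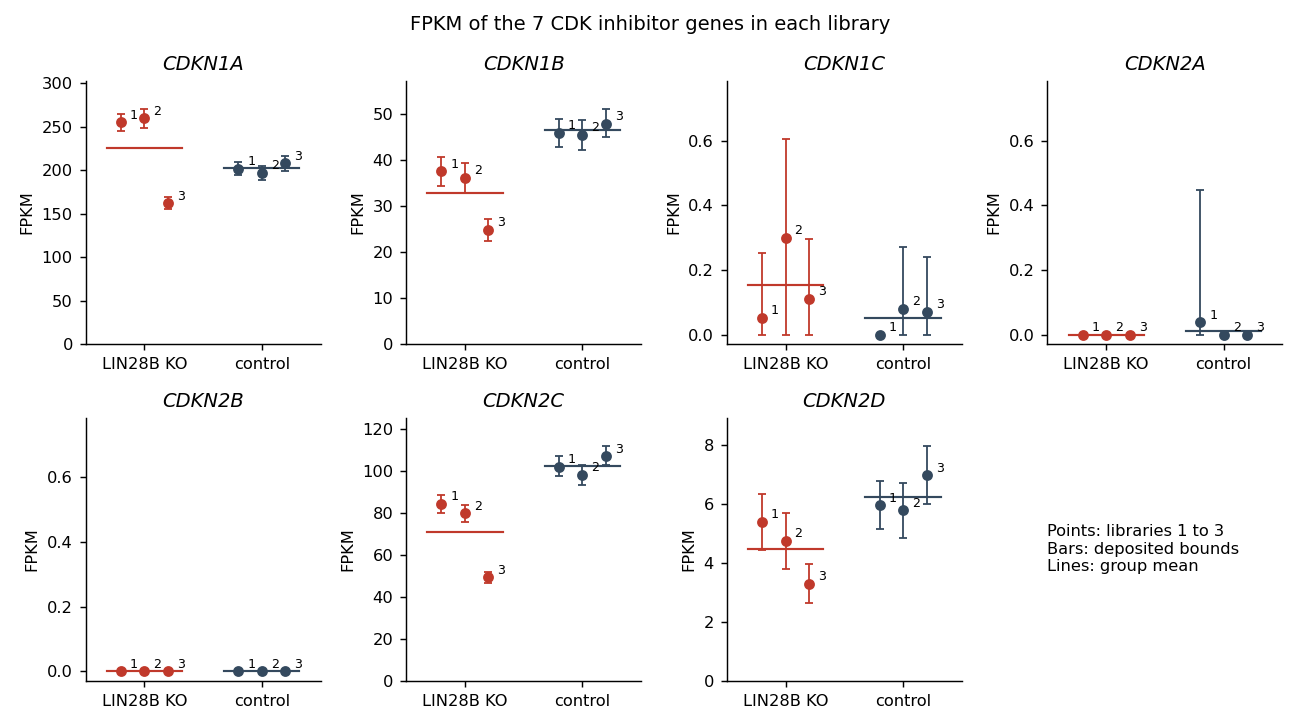
FPKM of each CDK inhibitor gene (vertical axes, FPKM, each gene on its own scale) in LIN28B KO and control libraries; points are libraries 1 to 3, bars the deposited lower and upper bounds, and lines group means. CDKN1A was above all controls in LIN28B KO libraries 1 and 2 and below them in library 3, while CDKN1B, CDKN2C and CDKN2D were below all controls in the 3 LIN28B KO libraries.

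CDKN1A encodes p21, the CIP/KIP inhibitor that is induced after DNA damage. The gene, ENSG00000124762, spans bases 36644305 to 36655116 of chromosome 6 (GRCh37). CDKN1A stood at 255, 259.6 and 162 FPKM in LIN28B KO libraries 1 to 3, against 202, 197 and 208 FPKM in control libraries 1 to 3. The groups overlapped, because LIN28B KO library 3 lay below every control while the other 2 lay above. LIN28B KO library 3 had deposited bounds of 155 and 169 FPKM, against 245 and 265 FPKM for LIN28B KO library 1. The bounds of these libraries of 1 group did not overlap; what the bounds include is not given in the sources used here. With all 6 libraries the log2 fold change of LIN28B KO over control was 0.13 (SE 0.20, limma adjusted p = 0.766), and an exact two-sided permutation test gave p = 0.5, where 0.1 is the smallest p that 3 against 3 libraries allow. All fold changes given are differences of mean log2(FPKM + 0.5), where the added 0.5 shrinks those of weakly expressed genes. LIN28B KO libraries 1 and 2 averaged 257 FPKM, 127% of the control mean, and library 3 stood at 80.2% of it.

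CDKN1A passed the test once LIN28B KO library 3, in which it lay below every control, was left out and only protein-coding genes were fitted. The log2 fold change was then 0.35 (SE 0.05, limma adjusted p = 0.0266), in a fit that called 1.08% of 11308 genes higher and 3.02% lower. It is called the 5-library protein-coding fit below, and its LIN28B KO group holds libraries 1 and 2 only. Leaving out LIN28B KO library 1 or 2 instead, with genes of every type, gave log2 fold changes of 0.02 and 0.01 (limma adjusted p = 0.959 and 0.982). With cyclic loess, a scaling that removes trends with expression level between libraries, the 5-library protein-coding fit gave 0.44 (SE 0.05, limma adjusted p = 0.0220), and 1.08% of its genes were called higher and 1.17% lower. With genes of every type in the fit of those 5 libraries, CDKN1A missed the threshold without cyclic loess (limma adjusted p = 0.0607) and passed with it (log2 fold change 0.44, limma adjusted p = 0.0432). In that fit of every gene type without cyclic loess, the adjusted p was 0.0787 for CDKN1B and 0.0856 for CDKN2C. With cyclic loess on all 6 libraries, LIN28B KO libraries 1 to 3 lay 0.43, 0.45 and 0.28 above the control mean on the log2 scale, and controls between -0.03 and 0.05. All 3 LIN28B KO libraries were then above all controls, which held for 13.7% of genes tested, but the adjusted p was 0.0563 (log2 fold change 0.39, SE 0.06). That fit called 0.361% of genes higher and 0.342% lower, and the median log2 fold change of all genes in it was 0.00, against -0.13 without cyclic loess.

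CDKN1A was the only one of the 7 genes whose 3′ UTR held a match to the let-7 seed, bases 2 to 8 of the microRNA, counting matches to all 7 of these bases or to bases 2 to 7 followed by an A. Such a match stood in 18% of the 11309 tested protein-coding genes with an annotated 3′ UTR. In CDKN1A it spans bases 943 to 950 of a 1539-base UTR of GENCODE 29. The share of 18% does not take UTR length into account, which had a median of 1368 bases. The UTRs of CDKN1C, CDKN2A, CDKN2C and CDKN2D had 703, 591, 363 and 596 bases, and those of CDKN1B and CDKN2B 1344 and 3084. The microRNA is shown with its seed in capitals, as RefSeq gives it for MIRLET7A1 at chr9:94175962-94175983 of GRCh38.p14, plus strand, and the mRNA with the match in capitals, whose last A lies opposite base 1 of the microRNA, both 5′ to 3′.

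hsa-let-7a-5p: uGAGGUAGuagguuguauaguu

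CDKN1A 3′ UTR: agggcaccctagttCTACCTCAggcagctc

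CDKN1A also held 2 matches to the seed shared by miR-17 and miR-106b, microRNAs known to repress it, against a match in 32% of tested UTRs. They begin at bases 468 and 1148 of the same UTR. The first of them and one microRNA of the family, from MIR106B at chr7:100094043-100094063 of GRCh38.p14, minus strand, are shown in the same way. A match is a description of the letters and was not tested as a site of repression.

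hsa-miR-106b-5p: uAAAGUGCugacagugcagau

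CDKN1A 3′ UTR: gaagtaaacagatgGCACTTTgaaggggcc

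CDKN1B encodes p27, the CIP/KIP inhibitor that accumulates in resting cells and is destroyed by the SKP2 ubiquitin ligase. The gene, ENSG00000111276, spans bases 12867992 to 12875305 of chromosome 12 (GRCh37). CDKN1B stood at 37.5, 36.1 and 24.8 FPKM in LIN28B KO libraries 1 to 3, against 45.9, 45.4 and 47.9 FPKM in control libraries 1 to 3. Every LIN28B KO library was below every control, and library 3 was the lowest. With all 6 libraries the log2 fold change was -0.52 (SE 0.18, unadjusted p = 0.0219, limma adjusted p = 0.318), and an exact two-sided permutation test gave p = 0.1, the smallest possible. An unadjusted p under 0.05 was reached by 13.7% of all genes tested. Without LIN28B KO library 3, CDKN1B fell among protein-coding genes (log2 fold change -0.33, SE 0.07, limma adjusted p = 0.0473). With cyclic loess in the 5-library protein-coding fit it was no longer past the threshold (log2 fold change -0.27, SE 0.07, limma adjusted p = 0.0879). APOLD1, a gene 3546 bases from CDKN1B, was at 2.64, 2.47 and 2.19 FPKM in LIN28B KO libraries, against 3.47, 1.91 and 3.19 FPKM in controls. Its groups overlapped (log2 fold change -0.16, SE 0.24, limma adjusted p = 0.741).

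The 3′ UTR of CDKN1B, 1344 bases long, held 2 matches to the seed of miR-221 and miR-222, microRNAs known to repress p27, and none to that of let-7. A match to this seed stood in 16.9% of tested UTRs. The first, at bases 201 to 208, and the microRNA, from MIR221 at chrX:45746180-45746202 of GRCh38.p14, minus strand, are shown with the seed and its match in capitals; the last A of the match lies opposite base 1 of the microRNA and does not pair with it.

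hsa-miR-221-3p: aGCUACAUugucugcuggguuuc

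CDKN1B 3′ UTR: tctaaaagcgttggATGTAGCAttatgcaa

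CDKN1C encodes p57, the CIP/KIP inhibitor of embryonic tissues, from an imprinted region on chromosome 11 (2904443 to 2907111 of GRCh37; gene ENSG00000129757). It stood at 0.0524, 0.300 and 0.111 FPKM in LIN28B KO libraries 1 to 3, against 0, 0.0803 and 0.0696 FPKM in control libraries 1 to 3. The groups overlapped, and the deposited lower bound was 0 in every library, with upper bounds of up to 0.605 FPKM in LIN28B KO and 0.270 FPKM in control. An exact two-sided permutation test gave p = 0.3. CDKN1C was under the filter of 1 FPKM in at least 3 libraries, and no difference was detectable at this depth.

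CDKN2C encodes p18, the INK4 inhibitor that is induced as B cells become plasma cells. The gene, ENSG00000123080, spans bases 51426417 to 51440305 of chromosome 1 (GRCh37). It was the main INK4 transcript of these cells, at 84.4, 79.8 and 49.4 FPKM in LIN28B KO libraries 1 to 3, against 102, 98.2 and 107 FPKM in control libraries 1 to 3. Again every LIN28B KO library was below every control. With all 6 libraries the log2 fold change was -0.56 (SE 0.21, unadjusted p = 0.0331, limma adjusted p = 0.349; exact two-sided permutation p = 0.1). Without LIN28B KO library 3, CDKN2C fell among protein-coding genes (log2 fold change -0.32, SE 0.06, limma adjusted p = 0.0466). That call was lost with cyclic loess (log2 fold change -0.24, SE 0.06, limma adjusted p = 0.102). FAF1, an apoptosis-linked gene that lies 482 bases from CDKN2C, was at 33.7, 37.6 and 31.7 FPKM in LIN28B KO libraries, against 38.7, 38.8 and 45.0 FPKM in controls (log2 fold change -0.25, SE 0.13, limma adjusted p = 0.417).

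CDKN2D encodes p19, another INK4 inhibitor, on chromosome 19 (10677138 to 10679735 of GRCh37; gene ENSG00000129355). It stood at 5.39, 4.75 and 3.30 FPKM in LIN28B KO libraries 1 to 3, against 5.96, 5.78 and 6.98 FPKM in control libraries 1 to 3. LIN28B KO library 1 was close to control library 2, though the groups did not overlap. The deposited bounds of LIN28B KO library 1, 4.44 and 6.34 FPKM, overlapped those of control library 2, 4.85 and 6.71 FPKM. The bounds of LIN28B KO library 3, 2.63 and 3.96 FPKM, overlapped those of no control. The log2 fold change was -0.46 with all 6 libraries (SE 0.20, limma adjusted p = 0.371; exact two-sided permutation p = 0.1). It was -0.27 in the 5-library protein-coding fit (SE 0.13, limma adjusted p = 0.270), and CDKN2D passed the test in none of the fits. KRI1, a ribosome assembly gene 425 bases from CDKN2D, was at 37.6, 31.2 and 22.7 FPKM in LIN28B KO libraries, against 39.6, 39.0 and 41.6 FPKM in controls (log2 fold change -0.42, SE 0.19, limma adjusted p = 0.376).

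Of the 4 genes tested, 3 thus lay below all controls in every LIN28B KO library, without regard to the size of the difference. Among all 15803 genes tested 20.1% did so, and 7.61% lay above all controls. After cyclic loess the same 3 genes still lay below all controls, as did 13.3% of genes. LIN28B KO libraries 1 to 3 then lay at -0.25, -0.30 and -0.40 from the control mean for CDKN1B, at -0.21, -0.29 and -0.50 for CDKN2C and at -0.21, -0.37 and -0.58 for CDKN2D, on the log2 scale. In each case library 3 was the farthest from the controls.

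**Figure D2:**
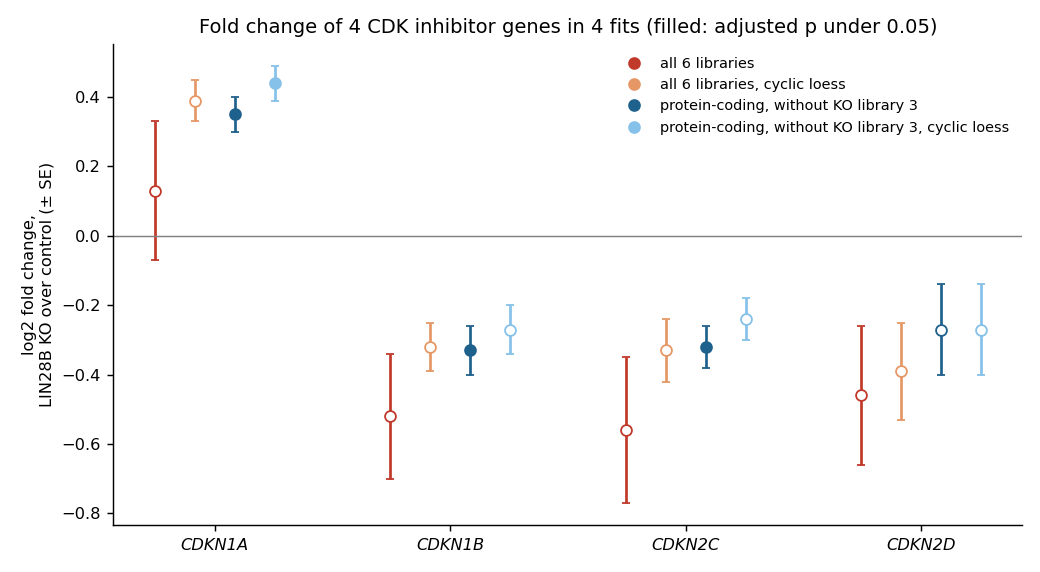
Log2 fold change of LIN28B KO over control (vertical axis, with SE) of the 4 tested CDK inhibitor genes in 4 fits, which differ in LIN28B KO library 3, the genes fitted and cyclic loess scaling; filled points passed the adjusted threshold. CDKN1A lay above 0 in each of these fits and passed in the 2 without LIN28B KO library 3; CDKN1B, CDKN2C and CDKN2D lay below 0 in each.

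CDKN2A and CDKN2B lie next to each other on chromosome 9, at 21967751 to 21995300 (gene ENSG00000147889) and 22002902 to 22009362 (gene ENSG00000147883) of GRCh37. CDKN2A encodes p16 and, from another start, p14ARF, an unrelated growth inhibitor; CDKN2B encodes p15. The region is one of those most often deleted in human cancers. CDKN2B was listed at 0 in all 6 libraries. CDKN2A was listed at 0 in the 3 LIN28B KO libraries and in control libraries 2 and 3, and at 0.0372 FPKM in control library 1, with a lower bound of 0 and an upper bound of 0.446 FPKM. The deposited tables give 1 value for CDKN2A as a whole, so its transcripts cannot be told apart. Neither gene could be compared between the groups.

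Both genes overlap CDKN2B-AS1, a long non-coding RNA also called ANRIL, which runs from 21994777 to 22121096 on the opposite strand. It was listed at 0.951, 1.28 and 3.54 FPKM in LIN28B KO libraries 1 to 3, against 0.964, 0.437 and 0.881 FPKM in control libraries 1 to 3. LIN28B KO library 3 was the highest and the groups overlapped. Whether reads were counted by strand is not given in the sources used here, so reads of overlapping genes may have been assigned to either. MTAP, a neighbour that salvages adenine and is often lost with CDKN2A, stood at 0.330, 0.426 and 0.877 FPKM in LIN28B KO libraries, against 0.188, 0.208 and 0.182 FPKM in controls. These values do not overlap, but the lower bound is 0 in 5 of the 6 libraries.

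The promoters of the 3 tested genes with a single start in RefSeq are shown next. Each window runs from 250 bases before the start to 50 after it in GRCh38.p14, read 5′ to 3′ on the strand of the gene. Capitals mark the GC box GGGCGG, the CCAAT box, the TATA box TATAAA, the E2F type motif TTTNNCGC, the E-box CACGTG, the forkhead type motif GTAAACA and the cell cycle homology region TTTGAA, on either strand. Matches of different motifs may overlap. The CDKN1A window is chr6:36678464-36678763, plus strand; that of CDKN1B is chr12:12717118-12717417, plus strand; that of CDKN2D is chr19:10568930-10569229, minus strand.

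CDKN1A: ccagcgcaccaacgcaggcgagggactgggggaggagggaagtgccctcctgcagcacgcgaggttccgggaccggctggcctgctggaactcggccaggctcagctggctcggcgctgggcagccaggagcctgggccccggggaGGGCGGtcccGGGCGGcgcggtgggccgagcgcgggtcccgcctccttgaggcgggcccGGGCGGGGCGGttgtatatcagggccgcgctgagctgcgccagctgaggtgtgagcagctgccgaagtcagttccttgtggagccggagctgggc

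CDKN1B: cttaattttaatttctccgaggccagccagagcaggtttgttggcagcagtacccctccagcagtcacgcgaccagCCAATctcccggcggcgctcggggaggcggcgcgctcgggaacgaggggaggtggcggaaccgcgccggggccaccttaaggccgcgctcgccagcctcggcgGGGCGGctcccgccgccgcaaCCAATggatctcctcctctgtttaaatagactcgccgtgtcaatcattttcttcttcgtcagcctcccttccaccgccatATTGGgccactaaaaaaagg

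CDKN2D: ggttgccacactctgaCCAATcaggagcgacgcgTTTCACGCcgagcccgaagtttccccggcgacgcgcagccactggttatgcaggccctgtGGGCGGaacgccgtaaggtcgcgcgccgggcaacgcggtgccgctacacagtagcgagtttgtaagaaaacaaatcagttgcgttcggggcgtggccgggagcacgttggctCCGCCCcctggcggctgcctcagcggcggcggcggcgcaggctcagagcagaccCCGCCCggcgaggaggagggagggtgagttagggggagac

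The CDKN1A window held 4 GC boxes and no match to the other 6 motifs. The CDKN1B window held 1 GC box and 3 CCAAT boxes, and the CDKN2D window 3 GC boxes, 1 CCAAT box and 1 match of E2F type. Among all 35116 windows of this length, 45.0% held a GC box, 34.6% a CCAAT box and 6.89% a match of E2F type. The CDKN1A window was also the richest in G and C, at 74.3%, against 62.3% for CDKN1B and 68.0% for CDKN2D, with a median of 58.7% over all windows. CDKN2C has 3 starts in RefSeq and CDKN2A 2. The middle window of CDKN2C, at 71.3% G and C, held 6 GC boxes and its other 2 windows 0 and 1. Whether motifs or base content go with the fold changes was not tested.

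Ratios between 2 genes within a library are not touched by scaling that acts alike on both, and these were examined after the levels had been seen. CDKN1A stood at 6.81, 7.20 and 6.52 times CDKN1B in LIN28B KO libraries 1 to 3, against 4.39, 4.34 and 4.33 times in control libraries 1 to 3. LIN28B KO library 3 was here close to the other 2. The ratio of CDKN1A to CDKN2C was 3.03, 3.25 and 3.28 in LIN28B KO libraries, against 1.97, 2.0 and 1.93 in controls, and that of CDKN1A to CDKN2D was 47.4, 54.7 and 49.1, against 33.8, 34.1 and 29.7. The ratios were 1.57-fold, 1.62-fold and 1.55-fold higher in LIN28B KO (log2 differences of 0.65, SE 0.04; 0.69, SE 0.04; and 0.63, SE 0.09). None of the 3 ratios overlapped between the groups. An exact two-sided permutation test gave p = 0.1 for each, the smallest possible, and p = 0.2 adjusted over the 6 pairs of tested genes. The differences were 0.69, 0.67 and 0.65 without LIN28B KO library 3, and 0.58, 0.74 and 0.60 for library 3 alone.

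**Figure D3:**
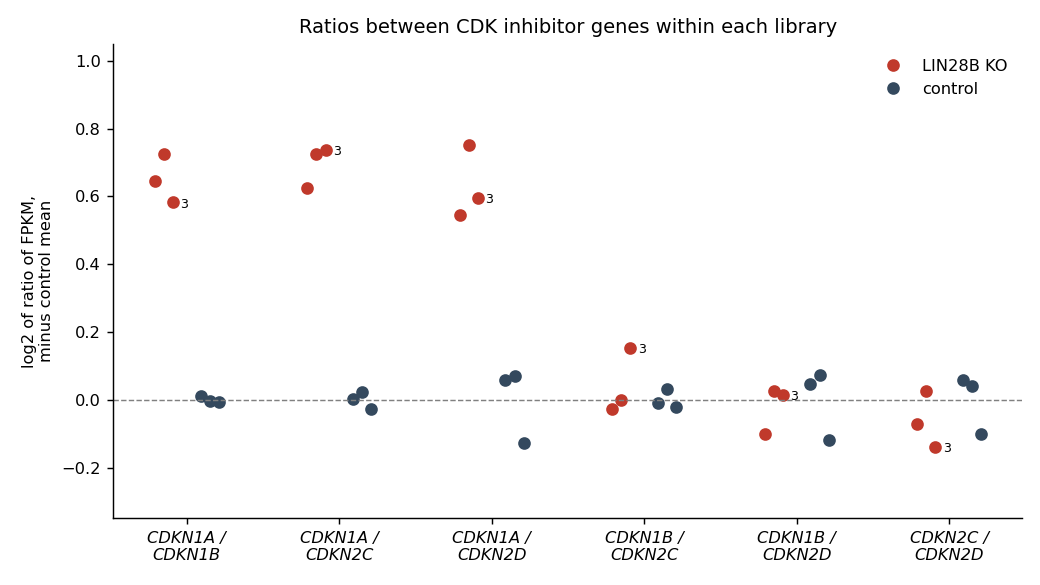
Log2 ratio of FPKM between 2 CDK inhibitor genes in each library, minus the mean of the 3 controls (vertical axis), for the 6 pairs of tested genes; points are libraries, and 3 marks LIN28B KO library 3. The 3 ratios with CDKN1A on top lay above all controls in each LIN28B KO library, and the groups overlapped in the other 3 ratios.

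The ratios among CDKN1B, CDKN2C and CDKN2D overlapped between the groups. CDKN1B stood at 0.444, 0.452 and 0.503 times CDKN2C in LIN28B KO libraries, against 0.449, 0.462 and 0.446 times in controls (log2 difference 0.04, SE 0.06; exact two-sided permutation p = 0.7). The log2 differences were -0.02 (SE 0.07, exact permutation p = 0.6) for CDKN1B to CDKN2D and -0.06 (SE 0.07, exact permutation p = 0.4) for CDKN2C to CDKN2D. With 3 libraries a group these p-values do not show that the genes moved alike. A raised ratio to CDKN1A was also not particular to the family. The ratio of CDKN1A to another gene was above all controls in every LIN28B KO library for 38.3% of 15377 tested genes with a value above 0 in all libraries. The ratio of CDKN1B, CDKN2C and CDKN2D to another gene was below all controls for 57.1%, 56.5% and 42.8% of them.

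CDKN1A made up 66.7%, 68.2% and 67.6% of the summed FPKM of the 7 genes in LIN28B KO libraries 1 to 3, against 56.7%, 56.9% and 56.1% in control libraries 1 to 3. The groups did not overlap on this scale, and library 3 stood between the other LIN28B KO libraries. The shares of the other genes are tied to that of CDKN1A, because all add up to the same sum. CDKN2C made up 22.1%, 21.0% and 20.6% in LIN28B KO libraries, against 28.7%, 28.4% and 29% in controls. CDKN1B made up 9.80%, 9.47% and 10.4%, against 12.9%, 13.1% and 13.0%. CIP/KIP transcripts together held 77.4% ± 0.798 of the sum in LIN28B KO libraries and 69.5% ± 0.450 in controls (SD, n = 3 each), and INK4 transcripts the rest (exact two-sided permutation p = 0.1, the smallest possible). The sum itself overlapped between the groups: it was 383, 381 and 239.6 FPKM in LIN28B KO libraries, against 356, 346 and 369.9 FPKM in controls.

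**Figure D4:**
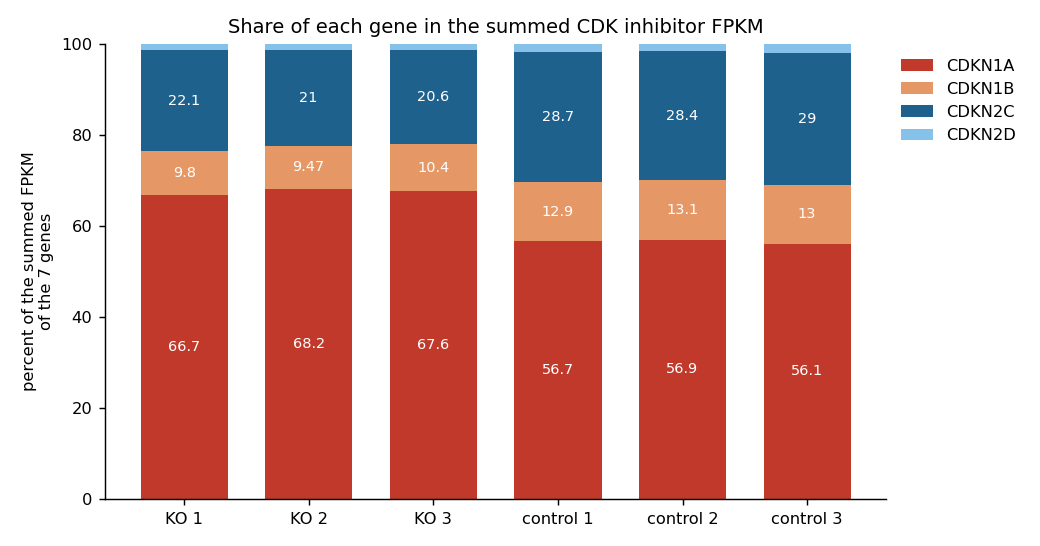
Percent of the summed FPKM of the 7 CDK inhibitor genes held by each of the 4 tested genes (vertical axis, bars stacked to 100%) in each library; CDKN1C, CDKN2A and CDKN2B together are too small to be seen. CDKN1A held 66.7% to 68.2% in LIN28B KO libraries and 56.1% to 56.9% in controls.

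Among 19236 protein-coding genes ranked by FPKM in each library, CDKN1A was number 291, 295 and 327 from the top in LIN28B KO libraries 1 to 3, against 431, 442 and 409 in control libraries 1 to 3. It thus ranked higher in library 3 as well, where its FPKM was lower. A rank also depends on the levels of all other genes, and how many genes differed in rank without overlap was not examined. CDKN2C was number 1175, 1257 and 1535 in LIN28B KO libraries, against 1007, 1045 and 931 in controls, and CDKN1B was number 2838, 2940 and 3243, against 2428, 2418 and 2297. CDKN2D ranked 8945, 9172 and 9728, against 8712, 8774 and 8310, near the middle of all genes.

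The partners of the inhibitors were measured in the same libraries. Of 13 genes for CDKs and cyclins that the inhibitors bind, 11 were tested and none passed with all 6 libraries. All 11 had a negative log2 fold change, with a median of -0.46 against -0.13 for all genes tested. With cyclic loess on all 6 libraries 10 of 11 were negative, with a median of -0.26 against 0.00 for all genes. With cyclic loess in the 5-library protein-coding fit 9 of 11 were negative, with a median of -0.26 against 0.00 for all genes. How many of all genes had a negative log2 fold change in these fits was not counted. In the 5-library protein-coding fit, which called 3.02% of all genes lower and 1.08% higher, 2 of 11 fell and none rose (median -0.31 against -0.04 for all genes). CCNA2, the S phase cyclin A, was one of them, at 23.3, 26.0 and 17.2 FPKM in LIN28B KO libraries, against 35.1, 33.8 and 35.9 FPKM in controls (log2 fold change -0.50, limma adjusted p = 0.0329). CCND3, a D-type cyclin, was the other, at 16.6, 17.3 and 10.9 FPKM, against 24.4, 21.6 and 25.7 FPKM (log2 fold change -0.48, limma adjusted p = 0.0475). With cyclic loess in that fit CCND3 missed the threshold (limma adjusted p = 0.0717). CCNA2 stayed past it (limma adjusted p = 0.0483), as 1 of 11, beside 1.17% lower among all genes.

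CCND1 was the most abundant cyclin of the list, at 731, 772 and 521 FPKM in LIN28B KO libraries, against 839.9, 814 and 807 FPKM in controls (log2 fold change -0.30, SE 0.18, limma adjusted p = 0.457). CDK4, a target of INK4 proteins, was at 96.9, 114 and 61.8 FPKM, against 118, 118 and 117 FPKM (limma adjusted p = 0.420). CDK6, the other target, was at 50.4, 46.3 and 43.9 FPKM, against 51.0, 48.2 and 48.4 FPKM (limma adjusted p = 0.782). CDK2, which CIP/KIP proteins block, was at 36.6, 38.2 and 22.6 FPKM, against 44.3, 43.3 and 43.5 FPKM (limma adjusted p = 0.375). None of these 4 passed in the 5-library protein-coding fit either. The pocket proteins RB1, RBL1 and RBL2, which CDKs inactivate, had log2 fold changes of -0.21, -0.26 and -0.06 with all 6 libraries, and none of the 3 passed in either fit.

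Genes for the degradation of CIP/KIP proteins came next. Of 17 listed genes 16 were tested, and with all 6 libraries none passed (median log2 fold change -0.26 against -0.13 for all genes). In the 5-library protein-coding fit 4 of 16 fell and none rose, beside 3.02% lower and 1.08% higher among all genes, though the median of -0.08 was near the -0.04 of all genes. CKS1B, the cofactor with which SKP2 recognises p27, was at 114, 108 and 74.9 FPKM in LIN28B KO libraries, against 172, 174 and 173 FPKM in controls. It fell in that fit (log2 fold change -0.64, limma adjusted p = 0.0142) and also with cyclic loess on all 6 libraries (log2 fold change -0.59, limma adjusted p = 0.0118). DTL, which directs p21 to degradation on chromatin, was at 42.5, 52.3 and 41.2 FPKM, against 63.8, 70.4 and 66.9 FPKM (log2 fold change -0.50, limma adjusted p = 0.0460 in the 5-library protein-coding fit). CDC20, an activator of the anaphase-promoting complex, fell in the same fit (log2 fold change -0.42, limma adjusted p = 0.0386), as did PCNA, the DNA clamp on which DTL meets p21, named after its values were seen (log2 fold change -0.38, limma adjusted p = 0.0386). With cyclic loess in the 5-library protein-coding fit, CKS1B alone of the 4 stayed past the threshold (limma adjusted p = 0.0168). The log2 fold changes of DTL, CDC20 and PCNA were then -0.43, -0.36 and -0.30 (limma adjusted p = 0.0825, 0.0701 and 0.0834). CKS1B was thus 1 call among 16 in each of the fits with cyclic loess. Among all genes 0.342% were called lower with cyclic loess on all 6 libraries, and 1.17% with it in the 5-library protein-coding fit. SKP2 itself was at 24.8, 22.9 and 18.2 FPKM, against 27.2, 28.0 and 25.3 FPKM (log2 fold change -0.29, SE 0.15, limma adjusted p = 0.411).

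**Figure D5:**
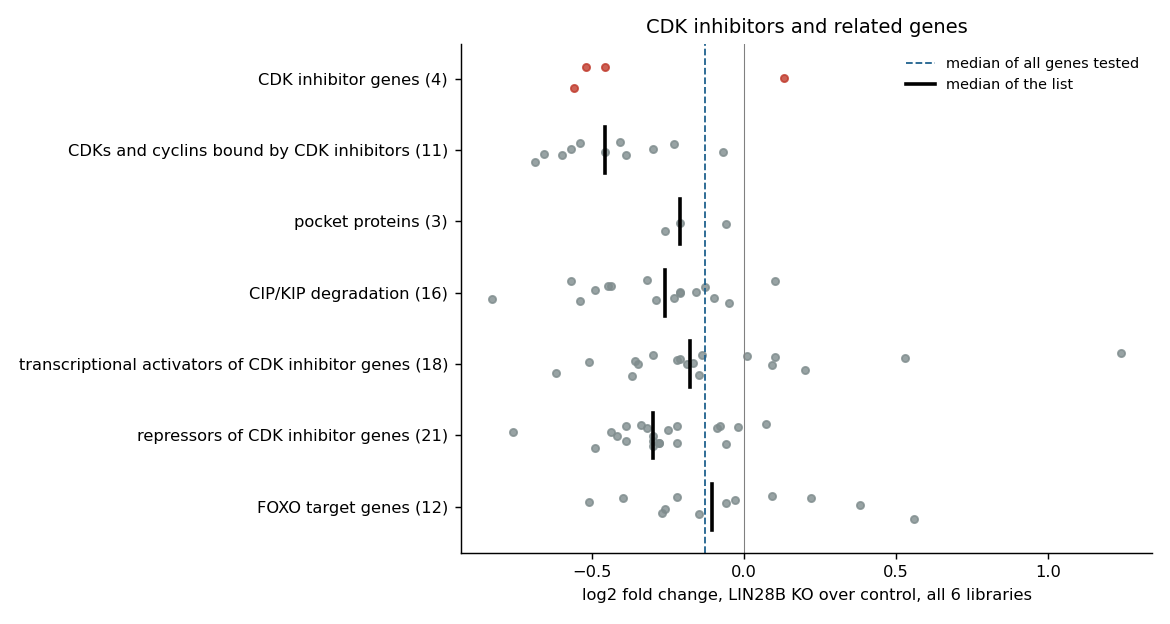
Log2 fold change of LIN28B KO over control with all 6 libraries (horizontal axis) for the tested CDK inhibitor genes and the tested members of 6 lists of related genes, with their number in brackets; each point is a gene, black lines are list medians and the dashed line is the median of all genes tested, -0.13. The median of CDKs and cyclins was -0.46 and that of FOXO target genes -0.11; no gene shown passed the adjusted threshold.

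Regulators of CDK inhibitor genes were examined next. Of 20 listed transcriptional activators 18 were tested and none passed with all 6 libraries (median log2 fold change -0.18 against -0.13 for all genes). Of these, TP63, SMAD3 and E2F1 had the smallest p, with log2 fold changes of 1.24, -0.35 and -0.62. TP63, a transcription factor best known from epithelia, was at 1.04, 1.40 and 3.81 FPKM in LIN28B KO libraries, against 0.421, 0.465 and 0.582 FPKM in controls, highest in library 3, and was under the filter of the 5-library protein-coding fit. SMAD3, which carries TGF-β signals that induce CDKN2B in other cells, fell in the 5-library protein-coding fit (log2 fold change -0.32, limma adjusted p = 0.0479) and missed the threshold with cyclic loess (limma adjusted p = 0.0943). It was 1 call among 17 activators tested there, beside 3.02% lower and 1.08% higher among all genes. Of 24 listed repressors, mostly Polycomb proteins and DNA methyltransferases, 21 were tested and none passed with all 6 libraries (median -0.30 against -0.13 for all genes). DNMT3B, a DNA methyltransferase, was at 27.1, 26.4 and 18.2 FPKM, against 39.5, 40.1 and 41.3 FPKM. It fell in the 5-library protein-coding fit (log2 fold change -0.58, limma adjusted p = 0.0226) and with cyclic loess on all 6 libraries (-0.57, limma adjusted p = 0.0317). In each of these fits DNMT3B was 1 call among 21 repressors tested. Among all genes 3.02% and 0.342% were called lower in these fits. The Polycomb genes SUZ12 and EZH2 had log2 fold changes of -0.30 and -0.32 with all 6 libraries (limma adjusted p = 0.364 and 0.365).

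FOXO factors induce CDKN1B when growth factor signals are low. Of 13 listed FOXO target genes 12 were tested with all 6 libraries, none passed, and their median log2 fold change was -0.11, against -0.13 for all genes. PIK3IP1, an inhibitor of PI3-kinase, was at 19.1, 17.8 and 12.8 FPKM in LIN28B KO libraries, against 10.8, 11.7 and 10.3 FPKM in controls. It rose with cyclic loess on all 6 libraries (log2 fold change 0.71, limma adjusted p = 0.0433) and in the 5-library protein-coding fit (0.73, limma adjusted p = 0.0249). There it was 1 call among 11 tested, beside 1.08% higher and 3.02% lower among all genes. TXNIP, an inhibitor of thioredoxin, was at 202, 196 and 145 FPKM, against 136, 135 and 142 FPKM, and rose with cyclic loess on all 6 libraries too (0.63, limma adjusted p = 0.00826). PIK3IP1 and TXNIP were the 2 calls among the 12 tested in that 6-library fit. It called 0.361% of all genes higher and 0.342% lower. TXNIP had no match by identifier in GENCODE 29 and was not in the 5-library protein-coding fit. KLF2, a lymphocyte quiescence factor, had a log2 fold change of -0.51 with all 6 libraries (limma adjusted p = 0.349).

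The genes whose levels most resembled those of each tested inhibitor were picked by Pearson correlation of log2(FPKM + 0.5) over the 6 libraries, among 9568 named genes with a mean of at least 5 FPKM. For CDKN1A these were TSPYL1, ITM2B and CD59, with r = 0.9967, 0.9960 and 0.9952. For CDKN1B they were PDCD2, MESDC1 and CDC6, for CDKN2C FAM136A, CYCS and TMEM194A, and for CDKN2D FKBP3, TTC1 and ZNF700, all with r above 0.99. Such values were common: r was over 0.9 for 4.52% of these genes against CDKN1A, 28.6% against CDKN1B, 31.4% against CDKN2C and 22.4% against CDKN2D. The libraries share 2 groups and the low values of LIN28B KO library 3, so these correlations are a description only.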

How the data were processed

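For every library the authors deposited a table of FPKM by gene with 2 bounds and a status for each value, per the file headers. The submitters' processing notes list cutadapt, TopHat2 and HTSeq, and the build GRCh37; which tool wrote the tables is not given in the sources used here. Of 58000 rows, those of 108 genes with several rows were summed, giving 57886 genes, and 25 with a failed estimate in any library were left out. An exact 0 may be a failed estimate too. Fragment equivalents, (2 FPKM / (upper bound - FPKM)) squared and summed over genes, describe depth only. They are fragment counts only if the bounds hold counting error alone, which is not given in the sources used here.

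The fit was limma 3.58.1 with a variance trend (R 4.3.3) on log2(FPKM + 0.5), without covariates. It covered 15803 genes of at least 1 FPKM in at least 3 libraries, Benjamini-Hochberg adjusted. It was also run on simulated data, which had the spread of the 3 controls and not that of the LIN28B KO libraries. Gene types and 3′ UTRs (the longest per gene) are those of GENCODE 29; microRNAs and promoters are those of RefSeq. The 7 genes and all lists were chosen with earlier results of these data known. Named genes are those 7, LIN28B, their neighbours, a fixed set of partners, the 3 of each list with the smallest p and the 3 most correlated with each tested member; some genes that this rule picks, and 1 list, are not reported here.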

Additional observations from a re-analysis of the deposited data

How the results depend on the processing

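With all 6 libraries 10 genes were called higher and 5 lower. These counts were 5 and 1 with no filter on low values, 1 lower with a filter of 5 FPKM, 13 lower with quantile normalization and 57 and 54 with cyclic loess. When each library was left out in turn, 1 to 23 genes were called higher and 0 to 41 lower. Without LIN28B KO library 3 the counts were 36 and 36 with cyclic loess, 122 and 341 for protein-coding genes only, and 122 and 132 for these with cyclic loess. LIN28B, at -1.66 on the log2 scale, kept that value but missed the threshold with no filter on low values; it ranged from -1.75 to -1.50 when 1 library was left out, and missed the threshold in each such case but that of LIN28B KO library 3 (adjusted p = 0.00957 to 0.185).

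CDKN1A, at 0.13 with all 6 libraries, was past the threshold in 3 of 17 alternatives, all without LIN28B KO library 3: at 0.44 with cyclic loess, 0.35 for protein-coding genes only and 0.44 for both. Its values ranged from 0.01, when LIN28B KO library 2 was left out, to 0.44. CDKN1B and CDKN2C were past the threshold in 1 of 17, at -0.33 and -0.32 without LIN28B KO library 3 for protein-coding genes only, and CDKN2D in none. No alternative turned the direction of any of the 4 genes: the ranges were -0.62 to -0.27 for CDKN1B, -0.70 to -0.24 for CDKN2C and -0.59 to -0.27 for CDKN2D. The other alternatives were pseudocounts of 0.1 and 1 and a fit without a variance trend. The log2 difference of CDKN1C, 0.24, ranged from 0.08 without LIN28B KO library 2 to 0.69 with a pseudocount of 0.1, and that of CDKN2A from -0.15 to -0.02; both were fitted with no filter only and not called, and CDKN2A without control library 1 and CDKN2B, at 0 throughout, gave no value.

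With the replicate number as a block, 11 genes were called higher and 2 lower, and LIN28B stood at -1.66 (limma adjusted p = 0.0604). No pairing by number was seen: the correlations of deviations from group means were -0.0213, 0.0437 and -0.0327 for same-numbered libraries. Of the 6 libraries, LIN28B KO library 2 and control library 2 alone correlated best with their own number. Deviations from a mean of 3 libraries are tied to each other, so whether same-numbered libraries were prepared together cannot be told from them.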
